A study of Mus musculus with 96 samples.

Results

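The genes described here are 10 of the major histocompatibility complex (MHC) pathway: the class I heavy chains H2-K1 and H2-D1, their partner B2m, the class I loading factors Tap1 and Tapbp, the class II chains H2-Aa, H2-Ab1 and H2-Eb1, the invariant chain Cd74, and the class II transactivator Ciita. They are a set of named genes, and their rule uses no measured value, but the set was drawn up with earlier results of these data known. All 10 are among the 22709 genes of the deposited table, and all 10 passed the filter on low values in both tissues. Messenger RNA was sequenced from mouse hippocampus and prefrontal cortex in 96 libraries, 48 per tissue. The 8 groups of each tissue were MIA PLX females, MIA PLX males, MIA control females, MIA control males, saline PLX females, saline PLX males, saline control females and saline control males. MIA stands for maternal immune activation and saline for a saline injection in its place. PLX stands for PLX5622, an inhibitor of the colony-stimulating factor 1 receptor (CSF1R) that the labels call Plexxikon and that was given so that microglia are renewed, and control for animals without it. Each group had 6 libraries, except MIA control females with 7 and MIA control males with 5. The labels used here state no strain, age, litter, activating agent, or dose and timing of the inhibitor, and no transgene is named for any group. Animals of a litter share their mother's treatment, litter could not be modelled, and p-values for MIA may therefore be too small. The libraries come from bulk tissue, in which fewer cells of a type and less RNA per cell cannot be told apart.

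MHC class I molecules display peptides made inside a cell to cytotoxic T cells. They consist of a heavy chain (H2-K1 or H2-D1) with beta-2 microglobulin (B2m). Peptides enter the endoplasmic reticulum through a transporter of which Tap1 is a subunit, and tapasin (Tapbp) holds the class I molecule to that transporter. Class II molecules pair an alpha chain (H2-Aa) with a beta chain (H2-Ab1), or the E alpha chain with H2-Eb1, and show peptides from taken-up protein to helper T cells. The invariant chain (Cd74) occupies the class II groove until it is loaded, and Ciita is the coactivator that switches class II genes on. In the healthy brain class II is known mainly from macrophages of the brain's borders and from dendritic cells, and resting microglia carry little of it. Class I transcripts are found more widely and respond to interferons.

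Promoters of 5 of the genes are shown because the class I genes varied together, as did the class II genes. They are RefSeq windows of GRCm38.p6, the build of the sequence table and not that of the counts, from 250 bases before to 50 after the start site, read 5′ to 3′ along the gene. Capitals mark matches on either strand to the CCAAT box (CCAAT, or ATTGG when inverted) and to the core of the interferon-stimulated response element (GAAA, any 2 bases, then GAAA). RefSeq lists a second start of H2-K1 that lies 14 bases upstream, and its window, which overlaps the one shown, is left out.
H2-K1 (chr17:34000284-34000583, strand -): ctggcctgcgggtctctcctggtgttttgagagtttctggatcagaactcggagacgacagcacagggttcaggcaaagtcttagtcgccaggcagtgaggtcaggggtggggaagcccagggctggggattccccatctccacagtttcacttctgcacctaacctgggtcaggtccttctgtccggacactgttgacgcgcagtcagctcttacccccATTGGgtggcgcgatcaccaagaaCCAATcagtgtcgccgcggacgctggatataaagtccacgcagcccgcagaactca
H2-D1 (chr17:35262844-35263143, strand +): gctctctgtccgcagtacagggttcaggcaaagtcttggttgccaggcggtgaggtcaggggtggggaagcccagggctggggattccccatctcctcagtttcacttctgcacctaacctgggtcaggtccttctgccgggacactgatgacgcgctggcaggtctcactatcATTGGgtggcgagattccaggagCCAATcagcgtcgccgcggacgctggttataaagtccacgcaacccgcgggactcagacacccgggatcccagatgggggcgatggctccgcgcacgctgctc
B2m (chr2:122147437-122147736, strand +): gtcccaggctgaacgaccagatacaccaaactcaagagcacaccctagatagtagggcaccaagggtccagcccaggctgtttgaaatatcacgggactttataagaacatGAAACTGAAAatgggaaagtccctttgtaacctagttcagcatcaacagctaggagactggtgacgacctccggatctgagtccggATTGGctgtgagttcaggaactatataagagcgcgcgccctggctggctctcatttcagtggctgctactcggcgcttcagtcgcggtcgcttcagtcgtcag
H2-Aa (chr17:34287774-34288073, strand -): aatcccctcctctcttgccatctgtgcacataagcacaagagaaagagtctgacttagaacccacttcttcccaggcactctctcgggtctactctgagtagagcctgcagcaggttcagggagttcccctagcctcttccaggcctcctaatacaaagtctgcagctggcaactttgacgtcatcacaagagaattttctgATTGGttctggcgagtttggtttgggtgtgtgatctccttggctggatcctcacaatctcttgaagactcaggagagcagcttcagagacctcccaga
H2-Eb1 (chr17:34305617-34305916, strand +): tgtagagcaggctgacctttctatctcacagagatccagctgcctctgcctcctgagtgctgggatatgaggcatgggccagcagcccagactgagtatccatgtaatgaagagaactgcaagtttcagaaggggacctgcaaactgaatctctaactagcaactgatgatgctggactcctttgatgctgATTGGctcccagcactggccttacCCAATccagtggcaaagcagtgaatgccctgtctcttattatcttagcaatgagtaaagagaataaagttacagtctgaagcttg
The inverted box, ATTGG, began 30 bases before the start site in H2-K1, 76 before in H2-D1, 53 before in B2m, 48 before in H2-Aa and 59 before in H2-Eb1. The Y box of class II promoters is such an inverted box. H2-K1, H2-D1 and H2-Eb1 also held a CCAAT, and the B2m window held the GAAACTGAAA match, 139 bases before the start site. Of all 32851 promoter windows of the same length, 37.4% held a CCAAT box and 3.44% the interferon element core. The core of the gamma-activated site (TTCNNNGAA), present in 8.3% of windows, had no match in the windows searched, those of H2-K1, H2-D1, B2m, H2-Aa, H2-Eb1, Tap1 and Tapbp. Tap1 and Tapbp held CCAAT boxes and neither of the other motifs. A match is a description of letters, and H2-Ab1 and Ciita were not in the table of windows. Only the stated letters were searched, so an element that departs from them is not marked, in the heavy chain windows as elsewhere.

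Recovered reads per library ran from 22234569 to 26689351 in hippocampus and from 22752437 to 25928320 in prefrontal cortex. Each hippocampal library was matched with the prefrontal library of the same group and sample number, here called a label. The titles do not state that both come from the same animal. Labels fell into a set of 14 and a set of 34 by the summed share of 86 ribosomal protein genes and 85 genes of oxidative phosphorylation, which was 1.26% of the signal or more in the 14 and 1.16% or less in the others, as a mean over both tissues. These 14 labels, called the labels that stand apart, held 2 of the 24 PLX labels and 12 of the 24 control labels, so the inhibitor and this property of the libraries partly coincide. They held 6 of the 24 MIA labels and 8 of the 24 saline labels. Csf1r, the target of the inhibitor, had a log2 difference of -0.11 ± 0.03 (PLX minus control, SE) in hippocampus and -0.20 ± 0.03 in prefrontal cortex (limma adjusted p = 0.00859 and 0.000229). The microglia list had 9 of 10 markers called lower under PLX in each tissue, with median log2 differences of -0.18 in hippocampus and -0.26 in prefrontal cortex. Of all tested genes, 40.0% and 37.8% were called in either direction. The summed signal of the list had a median of 9965 normalized counts in the libraries that stand apart and 9112 in the others in hippocampus. In prefrontal cortex these medians were 10210 and 9326. With a term for the labels that stand apart, Csf1r differed by -0.09 ± 0.04 in hippocampus (limma adjusted p = 0.242) and -0.19 ± 0.04 in prefrontal cortex (limma adjusted p = 0.00278).

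B2m was the most abundant of the 10 transcripts per length and Ciita the least. Per kilobase of the longest protein-coding transcript in GENCODE M21, the mean level of B2m was 1810 ± 281 normalized counts in hippocampus and 1843 ± 236 in prefrontal cortex (SD, n = 48 each). Next came the heavy chains, with H2-K1 at 339.8 ± 67.7 per kilobase in hippocampus and 335 ± 58.9 in prefrontal cortex. H2-D1 had 328.9 ± 62.2 in hippocampus and 397.5 ± 62.2 in prefrontal cortex, where its mean was above that of H2-K1. Tapbp had 202.8 ± 21.3 per kilobase in hippocampus and 220.3 ± 20 in prefrontal cortex. The class II chains, Cd74 and Tap1 lay between 17.1 and 41.3 per kilobase in hippocampus and between 22.3 and 67.1 in prefrontal cortex. Ciita had 11.2 ± 4.36 per kilobase in hippocampus and 10.2 ± 3.49 in prefrontal cortex. Spans of 1 SD around the means of H2-K1 and H2-D1 overlapped in both tissues, and so did those of neighbours among Cd74, H2-Aa, Tap1, H2-Eb1 and H2-Ab1. No member was at 0 in any library.

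The class II genes were also the most variable between hippocampal libraries. The highest library had 27.8 times the H2-Aa level of the lowest in hippocampus and 6.78 times in prefrontal cortex, and for Cd74 these ratios were 14.5 and 2.54. For B2m they were 1.99 in hippocampus and 1.65 in prefrontal cortex, and for Tapbp 1.47 and 1.41. The lowest class II levels rest on few reads, with 5 recovered reads of H2-Ab1 in hippocampal MIA control female 3 and 6 of H2-Aa in saline control male 5.

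Class II transcripts and Cd74 were lower in hippocampus than in prefrontal cortex. Cd74 had a lowest, median and highest signal of 13.9, 52.8 and 201.7 normalized counts in hippocampus and of 57.2, 90.9 and 145.5 in prefrontal cortex. Hippocampus was the lower tissue in 43 of 48 labels for Cd74, and the ranges of the tissues overlapped. H2-Ab1 ran from 5.05 over a median of 17.4 to 80.7 in hippocampus and from 12 over 31.3 to 63.2 in prefrontal cortex, with hippocampus lower in 41 labels. H2-Aa was lower in hippocampus in 38 labels and H2-Eb1 in 34 labels. In one limma fit of all 96 libraries, averaged over the 8 groups, the log2 difference of hippocampus minus prefrontal cortex was -0.86 ± 0.11 for Cd74 (SE, limma adjusted p = 1.25e-11), -0.77 ± 0.12 for H2-Ab1 (2.54e-08), -0.67 ± 0.15 for H2-Aa (7.62e-05) and -0.43 ± 0.10 for H2-Eb1 (9.05e-05). The authors scaled the libraries within each tissue, and the median log2 difference over all genes in this comparison was 0.02.

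Of the 10 genes, 7 were called in the tissue comparison, where 65.9% of all tested genes were called. H2-D1 differed by -0.28 ± 0.05 (limma adjusted p = 4.12e-07) and was lower in hippocampus in 43 of 48 labels. Tapbp differed by -0.12 ± 0.03 (9.95e-05), and Tap1 was the only one of the 10 called higher in hippocampus, by 0.35 ± 0.05 (1.24e-08) and in 45 of 48 labels. B2m, H2-K1 and Ciita were not called. The direction and call of all 7 were the same with another scaling, with edgeR and DESeq2, and with the term for the labels that stand apart. The border macrophage list had 9 of 10 markers lower in hippocampus and none higher, with a median log2 difference of -0.66. Its summed signal ran from 123.2 to 687.1 normalized counts in hippocampus (median 303.6) and from 358.3 to 715.3 in prefrontal cortex (median 498.5). Cd209f was at 0 in 4 hippocampal libraries and Folr2 in 1, and no other marker of the list was at 0 in any library of either tissue. Other lists differed between the tissues as well. Of 12 meningeal fibroblast markers, a list added after the data were seen, 6 were called lower in hippocampus and 3 higher. Their summed signal had a median of 3245 normalized counts in hippocampus and 2390 in prefrontal cortex. Of 15 interferon-stimulated genes, 9 were called lower in hippocampus and 1 higher. The part of any of these lists in the tissue difference of class II was not tested.

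**Figure D1:**
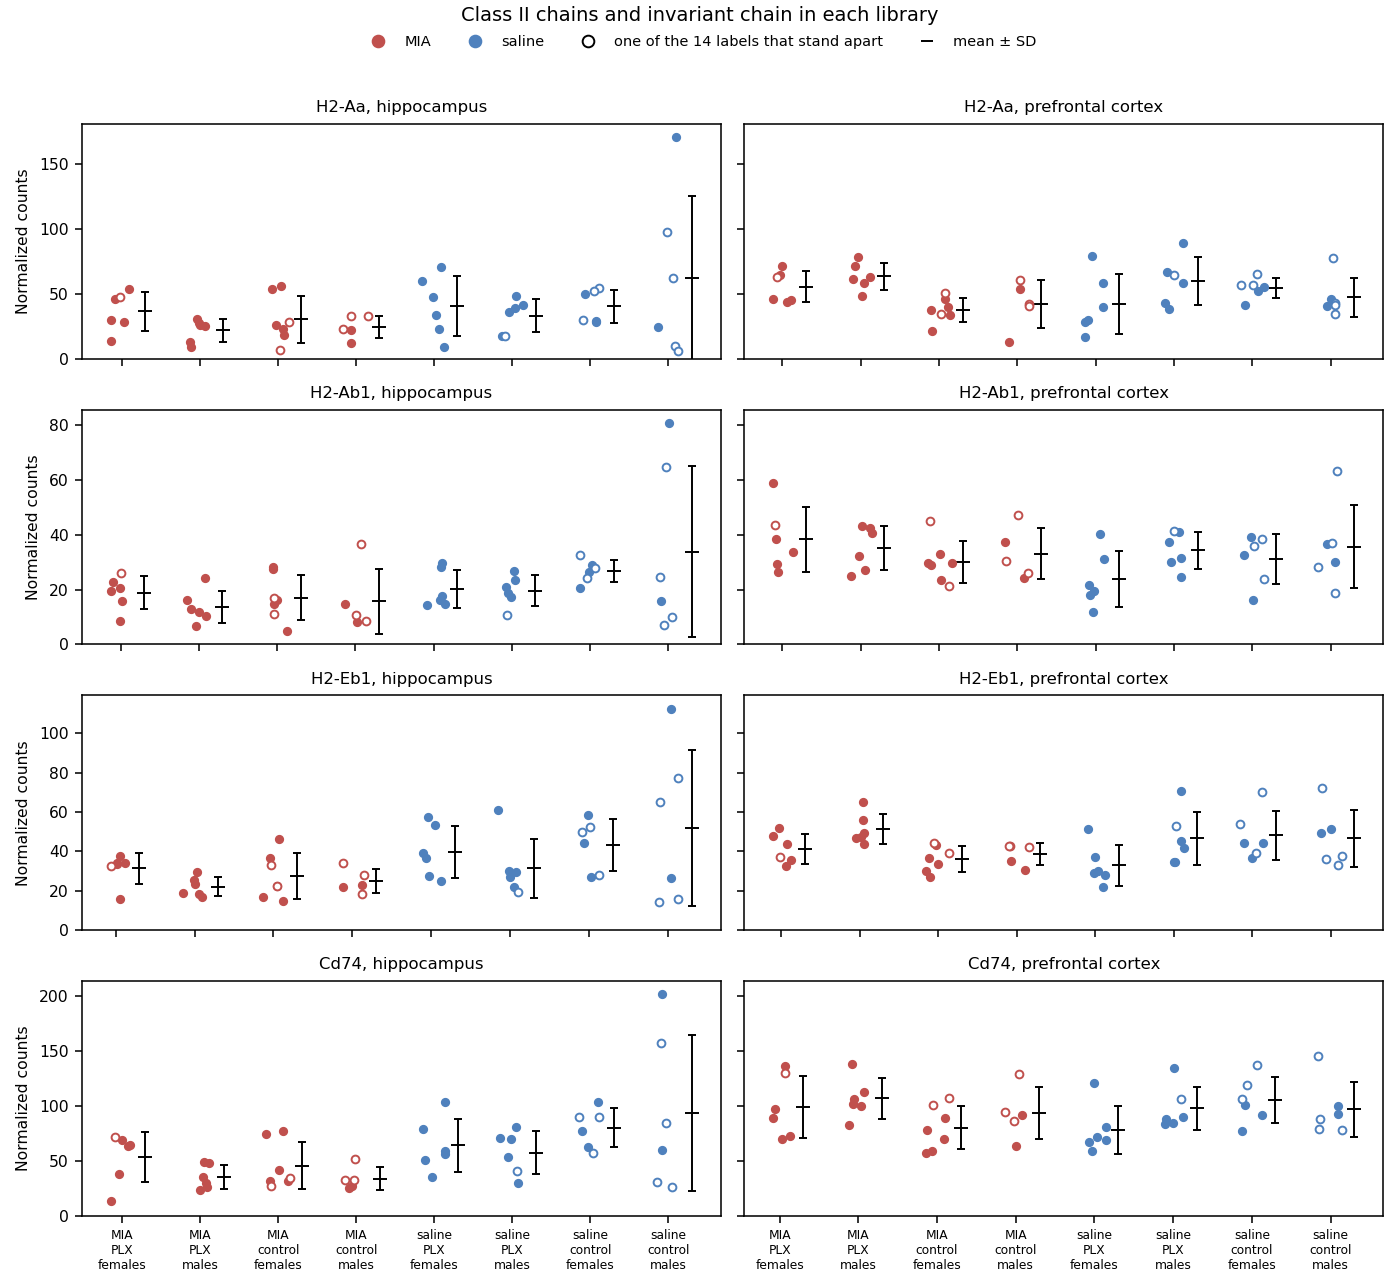
Normalized counts of H2-Aa, H2-Ab1, H2-Eb1 and Cd74 in each library (points) of the 8 groups, hippocampus on the left and prefrontal cortex on the right, with the mean and SD of each group beside the points and open points for the 14 labels that stand apart. Hippocampal Cd74 reaches 201.7 normalized counts in a saline control male, and the hippocampal means of Cd74 are lower in each of the 4 MIA groups than in any of the 4 saline groups. The medians of Cd74 are not separated in this way. Single libraries overlap, and how many of all genes have means separated in this way was not counted.

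In hippocampus, Cd74, H2-Ab1 and H2-Eb1 had lower group means after MIA than after saline, but no member passed the threshold of an adjusted p under 0.05. Cd74 showed the widest difference. Its lowest, median and highest signals were 13.9, 64.2 and 71.5 normalized counts in MIA PLX females and 23.5, 32.8 and 49.1 in MIA PLX males. They were 27.1, 34.8 and 77.0 in MIA control females, and the 5 MIA control males had 25.05, 33.0, 32.6, 26.95 and 52.2. Of these groups, MIA PLX females had the highest median. Against these, saline PLX females had 35.8, 57.8 and 103.8 and saline PLX males 30.1, 61.8 and 81.3. Saline control females had 56.95, 83.5 and 103.5 and saline control males 26.6, 72.2 and 201.7. All 4 MIA group means of Cd74, from 34.0 to 53.4, lay below all 4 saline group means, from 57.6 to 93.5, while single libraries overlapped. The Cd74 medians did not separate. That of MIA PLX females (64.2) was above those of saline PLX females (57.8) and saline PLX males (61.8). The means also separated for H2-Ab1 (MIA group means 13.7 to 18.9, saline 19.6 to 33.8) and for H2-Eb1 (MIA 22.1 to 31.35, saline 31.44 to 51.9). They did not for H2-Aa (MIA 21.8 to 36.6, saline 33.3 to 62.0). The H2-Eb1 mean of 31.44, in saline PLX males, includes 1 library at 60.79, where the next had 30.1. Medians of H2-Ab1 and H2-Eb1 did not separate. In MIA PLX females they were 19.9 and 33.65. The H2-Ab1 median was 17.0 in saline PLX females, and that of H2-Eb1 was 28.35 in saline PLX males. How many of all tested genes have group means separated in this way was not counted. Cd74, H2-Ab1 and H2-Eb1 also varied together in hippocampus (Pearson r 0.76 to 0.83), so they are not separate observations.

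Averaged over inhibitor and sex, the log2 difference of MIA minus saline in hippocampus was -0.75 ± 0.19 for Cd74 (limma adjusted p = 0.356). It was -0.52 ± 0.17 for H2-Eb1 (limma adjusted p = 0.722), -0.54 ± 0.20 for H2-Ab1 (limma adjusted p = 0.889) and -0.44 ± 0.26 for H2-Aa (limma adjusted p = 1). Of the 10 genes, 0 were called and 3 had an unadjusted p under 0.05 (Cd74, H2-Eb1 and H2-Ab1), where 0% of 19938 tested genes were called and 949 had an unadjusted p under 0.05. edgeR called 0 genes (Cd74 adjusted p = 0.156), and DESeq2 called 10, Cd74 among them (adjusted p = 0.0263). In prefrontal cortex Cd74 averaged 94.5 ± 23.6 normalized counts after MIA and 94.7 ± 22.9 after saline (SD, n = 24 each), and the log2 difference was 0.00 ± 0.09. There too 0% of genes were called (1183 at an unadjusted p under 0.05, with 0 of the 10 genes among them; edgeR called 0 genes and DESeq2 5, none of the 10). Class I genes, Tap1, Tapbp and Ciita differed by -0.09 to 0.04 in hippocampus and by -0.02 to 0.04 in prefrontal cortex, none of them called.

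The difference between tissues of the MIA effect, a comparison added after the values were seen, was -0.75 ± 0.21 for Cd74 and -0.71 ± 0.24 for H2-Ab1 (limma adjusted p = 1 for both, with unadjusted values under 0.05). No gene was called in it (0% of 20620, with 440 at an unadjusted p under 0.05, and 0 genes by edgeR and by DESeq2). Saline control males 2 and 3 held the highest hippocampal values of all 4 genes, with Cd74 at 201.7 and 157.4. In these 2 libraries the summed signal of 10 border macrophage markers was 629.6 and 491 normalized counts and that of 12 meningeal fibroblast markers 6110 and 4530, against 143.5 to 352.7 and 2267 to 4029 in the other 4 libraries of the group. Without both libraries, the MIA difference of Cd74 was -0.59 ± 0.17 (limma adjusted p = 0.457). The border macrophage and meningeal lists had median MIA differences of -0.16 and -0.13 in hippocampus with 0 markers called in either, and their part in the class II values was not tested.

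In prefrontal cortex the interaction of MIA and PLX was called for 0 of the 10 genes, and 4 of them had an unadjusted p under 0.05 in females, 0 in males and 3 on average over the sexes. Cd74 averaged 99.5 ± 28.3 normalized counts in MIA PLX females and 80.3 ± 19.7 in MIA control females, and 78.35 ± 21.99 in saline PLX females and 105.5 ± 20.9 in saline control females (SD; n = 6, 7, 6 and 6). The interaction in females was 0.74 ± 0.26 for Cd74, 1.08 ± 0.38 for H2-Aa, 0.74 ± 0.26 for H2-Eb1 and 0.73 ± 0.34 for H2-Ab1 on the log2 scale (limma adjusted p = 0.87 for each, with unadjusted values under 0.05). Averaged over sexes it was 0.46 ± 0.18 for Cd74, 0.74 ± 0.27 for H2-Aa, 0.57 ± 0.19 for H2-Eb1 and 0.40 ± 0.25 for H2-Ab1 (limma adjusted p = 0.887 for each). In males it was 0.19 ± 0.27 for Cd74, 0.39 ± 0.39 for H2-Aa, 0.40 ± 0.27 for H2-Eb1 and 0.08 ± 0.35 for H2-Ab1 (limma adjusted p = 0.999 for each), and the difference of the interaction between the sexes was not tested. Over all 19841 genes, 612 had an unadjusted p under 0.05 in females, 797 in males and 988 on average. In hippocampus the interaction had an unadjusted p under 0.05 for 0 of the 10 genes in either sex and on average. No gene of the whole table was called in any interaction (0%), by limma, edgeR or DESeq2.

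The inhibitor left the averaged levels of class I and class II chains without a called difference. Cd74 averaged 52.7 ± 21.6 normalized counts under PLX and 63.8 ± 43.6 in controls in hippocampus, and 95.7 ± 23.5 under PLX and 93.5 ± 22.9 in controls in prefrontal cortex (SD, n = 24 each). H2-Aa in prefrontal cortex averaged 55.4 ± 17.7 under PLX and 45.3 ± 13.7 in controls, a log2 difference of 0.27 ± 0.14 (limma adjusted p = 0.105). The H2-Aa libraries of both arms overlapped, from 17.0 to 89.1 under PLX and from 13.2 to 77.7 in controls. B2m differed by -0.04 ± 0.06 in hippocampus and -0.01 ± 0.05 in prefrontal cortex, H2-K1 by -0.12 ± 0.07 and -0.07 ± 0.07, and H2-D1 by -0.05 ± 0.07 and -0.06 ± 0.06, none of them called. In the comparison averaged over prenatal treatment and sex, 2 of the 10 genes were called in hippocampus (Ciita and Tapbp) and 1 in prefrontal cortex (Ciita), where 40.0% and 37.8% of all tested genes were called.

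Ciita, the coactivator of class II, was higher under PLX. In hippocampus its lowest, median and highest signals were 35.7, 80.0 and 144.1 normalized counts under PLX and 24.1, 47.4 and 99.95 in controls. In prefrontal cortex they were 33.75, 70.05 and 128.9 under PLX and 19.7, 48.3 and 80.4 in controls. The arms overlapped in both tissues. The log2 difference was 0.61 ± 0.15 in hippocampus (limma adjusted p = 0.0028) and 0.52 ± 0.14 in prefrontal cortex (limma adjusted p = 0.00389). Tapbp averaged 566.3 ± 54.5 under PLX and 609.1 ± 62.2 in controls in hippocampus, a log2 difference of -0.10 ± 0.04 (limma adjusted p = 0.0456). This Tapbp call was kept in 18 of the 48 fits that left out 1 library each. The Tapbp difference of -0.08 ± 0.04 in prefrontal cortex was not called (limma adjusted p = 0.0686), nor was Tap1 at -0.15 ± 0.07 in hippocampus and -0.18 ± 0.08 in prefrontal cortex (limma adjusted p = 0.0896 and 0.0766).

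The calls of Ciita and Tapbp coincided with the labels that stand apart. In hippocampus Ciita averaged 36.7 ± 7.95 normalized counts in the 14 libraries that stand apart and 79.4 ± 20.03 in the other 34. In prefrontal cortex it averaged 35.8 ± 7.16 and 71.65 ± 14.75 in the same sets (SD). Tapbp went the other way, with 643.7 ± 58.9 in the libraries that stand apart and 564.6 ± 46.8 in the others in hippocampus, and 705.2 ± 36.0 against 610.9 ± 40.2 in prefrontal cortex. The heavy chains and B2m, not called for PLX, also had higher means in the libraries that stand apart. In prefrontal cortex B2m averaged 1777 ± 189.5 there and 1506 ± 150.4 in the others. H2-D1 averaged 950.0 ± 100.1 against 788.3 ± 112.0, and H2-K1 612.4 ± 105.2 against 513.4 ± 75.2. In hippocampus the means were 1712 and 1493 for B2m, 751.0 and 666.9 for H2-D1, and 616.0 and 522.9 for H2-K1. Among the other 34 libraries, Ciita averaged 83.6 ± 20.6 under PLX (n = 22) and 71.7 ± 17.2 in controls (n = 12) in hippocampus, and 74.6 ± 16.2 under PLX and 66.2 ± 10.02 in controls in prefrontal cortex. With a term for the labels that stand apart, the Ciita difference was 0.17 ± 0.12 in hippocampus and 0.11 ± 0.09 in prefrontal cortex, and that of Tapbp -0.02 ± 0.04 and 0.01 ± 0.03. No member was called with that term, where 0.376% of all tested genes were called in hippocampus and 0.217% in prefrontal cortex. Whether the inhibitor or this property of the libraries goes with Ciita cannot be told apart beyond these values.

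**Figure D2:**
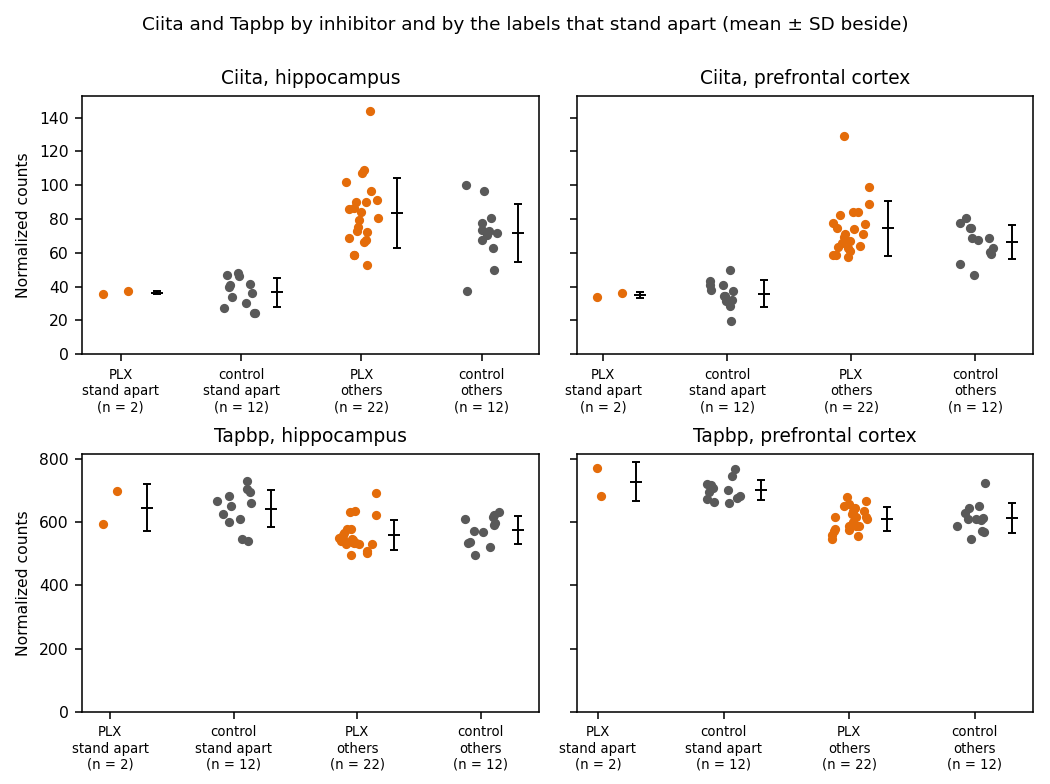
Normalized counts of Ciita (top) and Tapbp (bottom) in each library, split by inhibitor and by the labels that stand apart, hippocampus on the left, with mean and SD beside the points. Ciita is near 36 in the libraries that stand apart in either arm and near 84 under PLX and 72 in controls among the other hippocampal libraries.

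Within single groups no member was called for PLX against control. Ciita had positive differences in all 8 single comparisons of both tissues, from 0.32 ± 0.26 in prefrontal MIA females to 0.73 ± 0.31 in hippocampal saline females, with limma adjusted p = 0.82 and 0.178. The unadjusted p was under 0.05 in 5 of the 8, and the share of all genes under that value is not given here. Both tissues share their labels, so the 8 are not separate observations. In each of the 8 the controls held more libraries that stand apart, such as 4 of 6 saline control males against 1 of 6 saline PLX males. Without those labels the sign of Ciita turned in prefrontal MIA males. Over all genes the calls of these single comparisons were 0.00502% in MIA females, 0.00502% in MIA males, 0.0301% in saline females and 0.0251% in saline males of hippocampus. In prefrontal cortex they were 0.0252% in MIA females, 0.0202% in MIA males, 0.0252% in saline females and 0.338% in saline males. Some of these shares hung on single libraries. With 1 library left out, the genes called ran from 0 to 3631 in hippocampal MIA males. In prefrontal cortex they ran from 2 to 1992 in MIA males and from 6 to 3811 in saline males. In the other single comparisons they were at most 31. H2-Eb1 in prefrontal saline females averaged 32.9 ± 10.3 normalized counts under PLX and 48.1 ± 12.4 in controls (SD, n = 6 each), a log2 difference of -0.55 ± 0.19 that was not called (limma adjusted p = 0.273). H2-Aa in prefrontal MIA males was 63.6 ± 10.6 under PLX (n = 6) and 42.2 ± 18.3 in controls (n = 5), with a log2 difference of 0.72 ± 0.28 (limma adjusted p = 0.144).

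For MIA against saline in single groups, 0 of the 10 genes were called, beside 0.00502% of genes in hippocampal control females and 0% in the other 7 comparisons. Cd74 in hippocampus had log2 differences of -0.88 ± 0.36 in control females and -1.10 ± 0.39 in control males (limma adjusted p = 0.767 and 1). H2-Ab1 in prefrontal PLX females was 38.4 ± 11.8 after MIA and 23.8 ± 10.2 after saline (SD, n = 6 each), a log2 difference of 0.71 ± 0.24 (limma adjusted p = 0.757). The PLX effect did not pass the threshold for a difference between tissues for any gene (0%, 550 at an unadjusted p under 0.05), although 10 genes passed it when the label was fitted as a block, none of them among the 10 described here. For these 10 genes the difference without the block ran from -0.32 ± 0.30 for H2-Aa to 0.09 ± 0.21 for Ciita. Between the sexes, the PLX effect and the MIA effect differed for 0 of the 10 genes, with 0% of genes called in each tissue except for the hippocampal MIA effect (0.00502%).

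**Figure D3:**
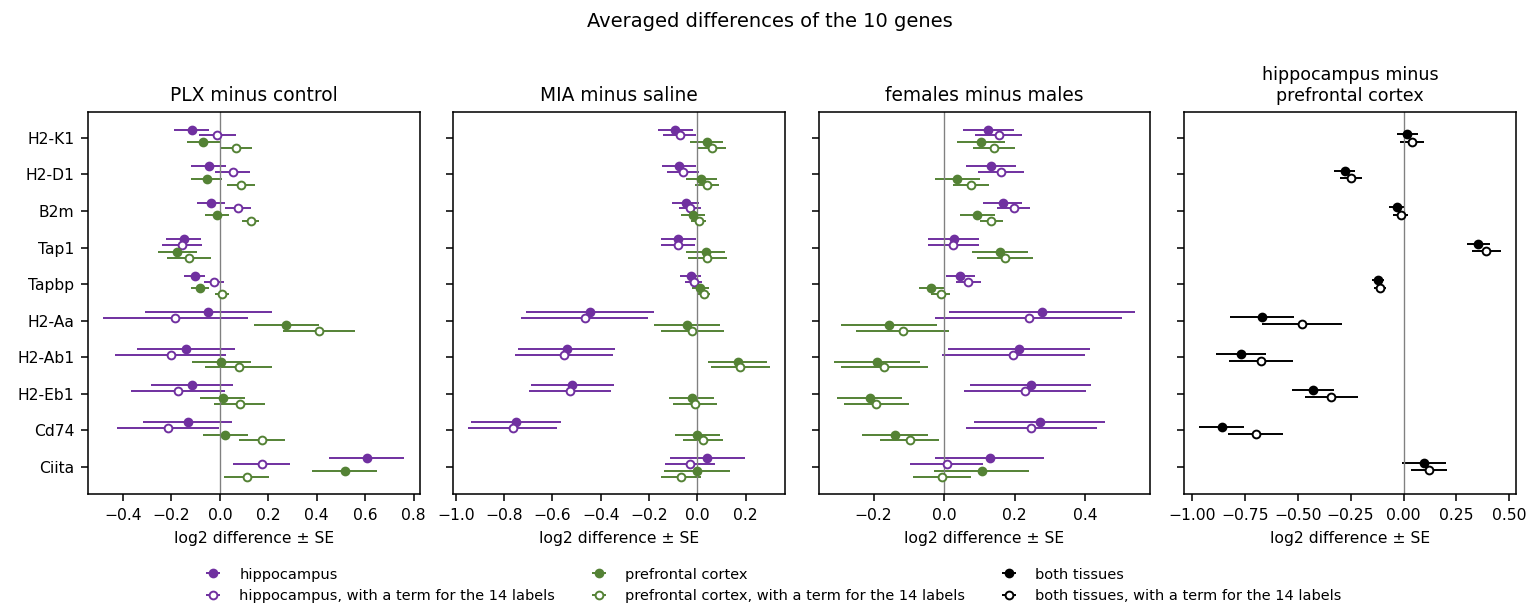
Log2 differences with SE of the 10 genes, averaged over the other factors, for PLX minus control, MIA minus saline and females minus males in hippocampus and prefrontal cortex and for hippocampus minus prefrontal cortex, without (filled) and with (open) a term for the 14 labels that stand apart. In hippocampus the PLX difference of Ciita is 0.17 with the term and 0.61 without it, and the MIA difference of Cd74 is -0.76 with it and -0.75 without.

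Among the class I genes B2m was the nearest to a difference between the sexes. In hippocampus it had a lowest, median and highest signal of 1268, 1576 and 2352 normalized counts in 25 female libraries and of 1184, 1488 and 1785 in 23 male libraries, with overlap of the sexes. The log2 difference of females minus males was 0.17 ± 0.06 (limma adjusted p = 0.326) and not called. With the term for the labels that stand apart it was 0.20 ± 0.05 and called (limma adjusted p = 0.0366). In prefrontal cortex B2m differed by 0.09 ± 0.05, and by 0.13 ± 0.03 with the term (limma adjusted p = 0.841 and 0.0611). All 10 hippocampal differences between females and males were positive, from 0.03 for Tap1 to 0.28 for H2-Aa, and in prefrontal cortex 5 of 10 were positive. The share of positive differences over all tested genes was not counted. The 10 genes vary together in sets, so their signs are not separate observations. Without the term, 0 of 10 genes were called in either tissue, where 0.246% of genes in hippocampus and 0.141% in prefrontal cortex were called, and 0.436% and 0.237% with the term.

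**Figure D4:**
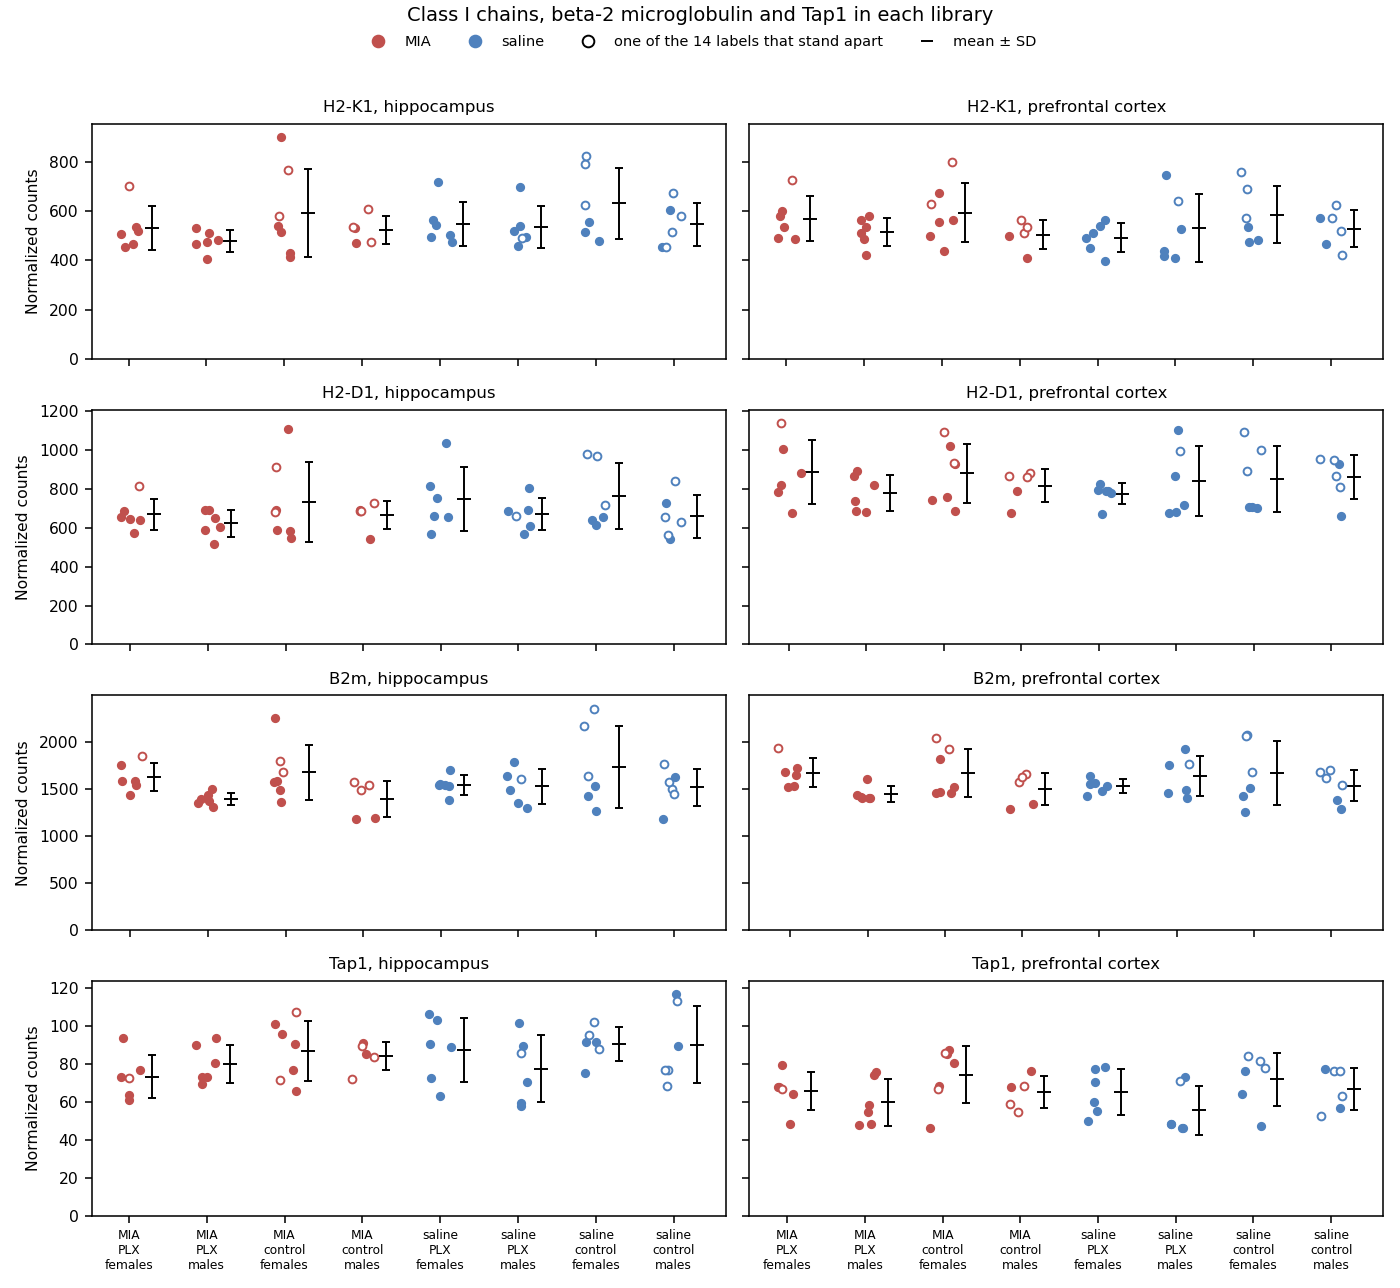
Normalized counts of H2-K1, H2-D1, B2m and Tap1 in each library of the 8 groups, hippocampus on the left and prefrontal cortex on the right, with the mean and SD of each group beside the points and open points for the 14 labels that stand apart. B2m reaches 2352 normalized counts in a hippocampal saline control female, and Tap1 is higher in hippocampus than in prefrontal cortex.

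The 10 genes fell into sets that varied together across libraries, described here over 48 libraries of a tissue that share the authors' scaling and the treatment groups. H2-Aa, H2-Ab1, H2-Eb1 and Cd74 had Pearson r from 0.76 to 0.85 with each other in hippocampus and from 0.61 to 0.76 in prefrontal cortex. After each group's mean was taken off, these ranges were 0.71 to 0.88 and 0.58 to 0.7. H2-K1 and H2-D1 had r of 0.90 in hippocampus and 0.88 in prefrontal cortex, and B2m had r of 0.75 to 0.78 with them. Between the class I and the class II set r ran from 0.19 to 0.50 in hippocampus and from 0.10 to 0.49 in prefrontal cortex. Ciita had r of -0.01 to 0.10 with the class II genes and Cd74 in hippocampus and of -0.27 to -0.07 in prefrontal cortex. Of the 50-base windows of the H2-K1 transcript, 8.79% also occur in another gene's transcript (6.94% in H2-D1), and 14.3% of those of H2-D1 do, so the counts of these genes may share some reads. For B2m, the class II chains, Cd74 and Ciita this share was 0%.

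**Figure D5:**
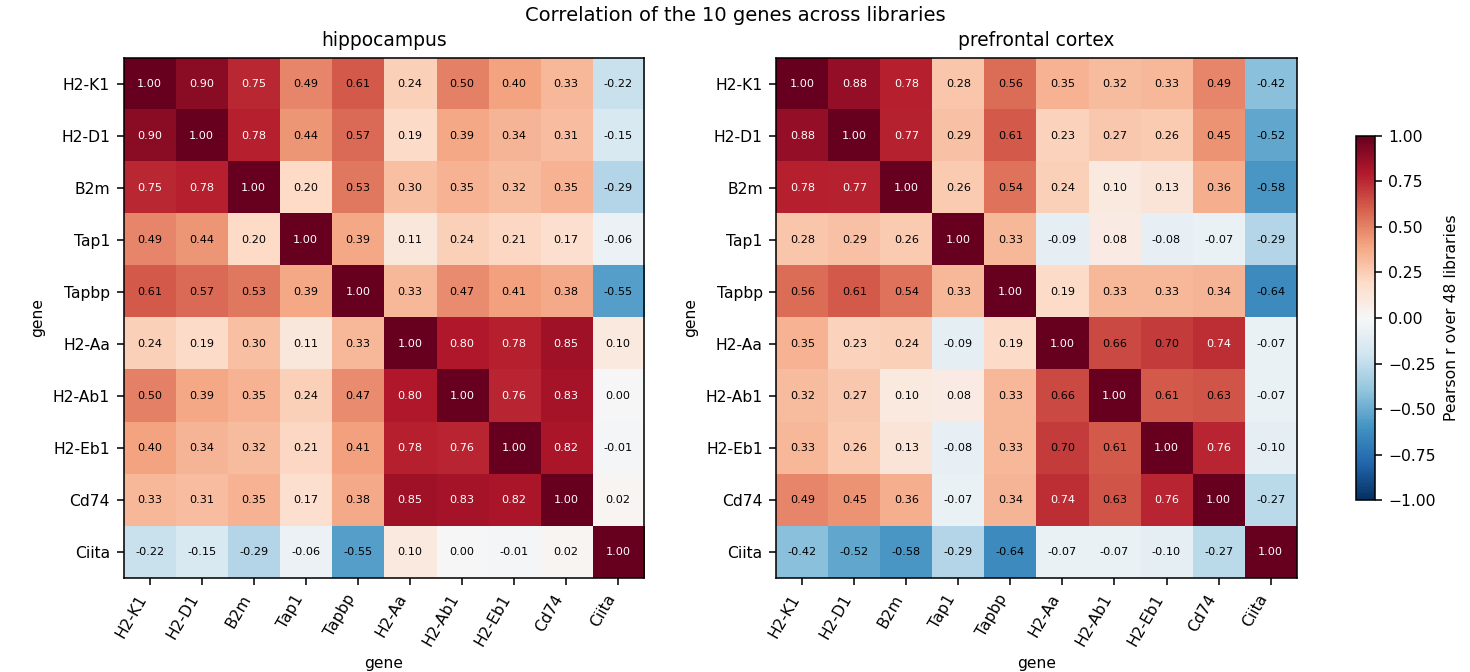
Pearson r between the 10 genes over the 48 libraries of each tissue, on log2(signal + 1). The class II chains and Cd74 form a block of 0.76 to 0.85 in hippocampus, H2-K1, H2-D1 and B2m form another, and Ciita is near 0 with the class II block there.

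The genes whose pattern across libraries was most like that of a member, by the mean of both tissues' r among 19366 genes, differed between the sets. For B2m they were C1qb, C1qa and Ctss (mean r 0.81, 0.79 and 0.74), which encode complement C1q chains and cathepsin S of microglia. For H2-K1 and H2-D1 the likest gene was Ifitm3, an interferon-induced membrane protein (mean r 0.73 and 0.71). For Cd74 they were Ptgds, Serping1 and Mgp (0.66, 0.66 and 0.64), for H2-Aa Fmod, Fgl2 and Colec12 (0.6, 0.59 and 0.59), for H2-Ab1 Efemp1, Crabp2 and Fmod (0.63, 0.61 and 0.6) and for H2-Eb1 Pcolce, Sema3b and Tgfbi (0.61, 0.57 and 0.57). Ptgds, Mgp, Fmod and Crabp2 are known from the meninges. With the summed markers of meningeal fibroblasts, a list added after these genes were seen, r in hippocampus was 0.74 for H2-Aa, 0.71 for Cd74, 0.67 for H2-Ab1 and 0.5 for H2-Eb1, against 0.00 to 0.15 for H2-K1, H2-D1 and B2m. In prefrontal cortex the class II genes and Cd74 had r of 0.41 to 0.51 with that list. With the border macrophage list r in hippocampus was 0.68 for H2-Aa, 0.64 for H2-Ab1, 0.59 for Cd74 and 0.47 for H2-Eb1, and in prefrontal cortex 0.21 to 0.39 for these genes. With the summed dendritic cell list the same genes had r of -0.17 to -0.06 in hippocampus and of -0.25 to 0.01 in prefrontal cortex. In hippocampus Flt3 (median 302.3 normalized counts) and Zbtb46 (255.3) made up most of that sum (median 610.7). With the microglia list the class II genes and Cd74 had r of 0.01 to 0.24 in hippocampus, and H2-K1, H2-D1 and B2m of 0.48 to 0.56. The latter values were not particular to microglia. H2-K1, H2-D1 and B2m had r of 0.42 to 0.52 with the T cell list in hippocampus. In prefrontal cortex they had 0.31 to 0.44 with the microglia list and 0.45 to 0.53 with the oligodendrocyte list. With 15 interferon-stimulated genes H2-K1 and H2-D1 had r of 0.8 and B2m of 0.77 in hippocampus, and 0.31 to 0.47 in prefrontal cortex.

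Tap1 was most like H2-Q4, Micall2 and Tie1 (mean r 0.55, 0.54 and 0.53), and Tapbp most like Tmbim6, Pnrc1 and Npc2 (0.74, 0.73 and 0.72). Ciita stood closest to Trrap, Kmt2d and Ccdc93, each with a mean r of 0.89. Of these, Trrap and Kmt2d encode large proteins of histone-modifying complexes. These r include the libraries that stand apart, in which Ciita was lower, and they were not computed without them. Between Ciita and Tapbp, r was -0.55 in hippocampus and -0.64 in prefrontal cortex over all 48 libraries. Over the 34 libraries that do not stand apart it was -0.21 and -0.06.

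Beyond the 10 genes, a list of 52 other genes of antigen presentation had 48 in the table and 47 tested in each tissue. Averaged over prenatal treatment and sex, 7 rose and 10 fell under PLX in hippocampus and 6 rose and 13 fell in prefrontal cortex, with list medians of -0.10 and -0.05 on the log2 scale beside 0.00 over all genes tested. These are 36.2% of the list in hippocampus and 40.4% in prefrontal cortex, near the 40.0% and 37.8% of all tested genes called, so the counts show nothing particular to the list. In both tissues H2-T24, a class Ib gene, rose (0.56 ± 0.14 in hippocampus, limma adjusted p = 0.00218, and 0.55 ± 0.15 in prefrontal cortex, limma adjusted p = 0.00455). Creb1, Rfx5, Jak1 and Jak2 rose in both tissues as well; Creb1 and Rfx5 encode factors that bind class II promoters. Marchf1, a ubiquitin ligase that removes class II from the surface, and Nfya rose in hippocampus, and Nlrc5, the coactivator of class I genes, rose by 0.40 ± 0.12 in prefrontal cortex. Of the inducible proteasome subunits, Psmb10 fell, at -0.26 ± 0.07 in hippocampus and -0.29 ± 0.07 in prefrontal cortex, and so did Psmb8, at -0.27 ± 0.08 and -0.31 ± 0.09. Psmb9 fell in hippocampus (-0.26 ± 0.10, limma adjusted p = 0.0465) and was not called in prefrontal cortex (-0.21 ± 0.11, limma adjusted p = 0.14). Psme1, an activator subunit of the proteasome, fell by 0.23 ± 0.05 and 0.25 ± 0.06, and Ctsl, Nfyb and H2-DMb1, a class II loading factor, fell in both tissues. In all 11 genes of the list were called in both tissues, 5 up and 6 down in each. In hippocampus Ifngr1, Ifngr2 and H2-Q4 also fell, and in prefrontal cortex H2-M3, Irf1, Psme2, H2-DMa, Rfxap and 2 others did. The difference of the PLX effect between the tissues was not called for any of them. With the term for the labels that stand apart, 1 of the 47 was called in each tissue (2.13%, beside 0.376% of all tested genes in hippocampus and 0.217% in prefrontal cortex). It was Ctss, the protease that cleaves the invariant chain. Ctss rose by 0.27 ± 0.06 in hippocampus (limma adjusted p = 0.0251) and 0.24 ± 0.05 in prefrontal cortex (limma adjusted p = 0.0075) with the term, and was not called without it (0.12 ± 0.07 and 0.11 ± 0.05, limma adjusted p = 0.13 and 0.119). For MIA, 0 of the 47 were called in either tissue by limma, where 0% of all tested genes were called, and 3 in hippocampus and 0 in prefrontal cortex had an unadjusted p under 0.05, beside 949 of 19938 and 1183 of 19841 genes in all. For sex, 0 of the 47 were called, where 0.246% of all genes in hippocampus and 0.141% in prefrontal cortex were called, and 9 in hippocampus and 7 in prefrontal cortex had an unadjusted p under 0.05, beside 1566 and 1200 genes in all.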

How the data were processed

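Polyadenylated RNA of 96 libraries was sequenced after extraction of total RNA with a miRNeasy Micro kit and a stranded Illumina preparation, per the labels. Per the submitters' processing notes, reads were trimmed with Trimmomatic and aligned with STAR 2.6.1d to GRCm39 (mm39); no source used here names the counter. The deposited signal is counts divided by 1 factor per library, with factors from 0.898 to 1.11. Undoing this scaling gave whole reads for 100% of the values above 0 that stand for fewer than 1000 reads (tolerance 0.01).

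Values were tested as log2(signal + 1) with limma 3.58.1 in R 4.3.3, with 8 groups per tissue or all 16 groups in 1 fit, a variance trend, a filter of signal 10 in 5 libraries, two-sided tests and Benjamini-Hochberg adjustment over all tested genes. Fold changes are on that scale. Calls were made below an adjusted p of 0.05. The fit was tested on simulated data. Alternatives used other pseudocounts, filters and scaling, edgeR 4.0.16 and DESeq2 1.42.0 on recovered reads, a replicate block, a term for the labels that stand apart, their removal, and removal of each library. The 10 genes are given in every comparison; genes of the antigen presentation list are named where called in an averaged comparison, at most 10 per direction, with the 3 likest genes per member. The members and lists were chosen with earlier results of these data known. The labels name separate samples, and p-values measure the spread between them.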

Additional observations from a re-analysis of the deposited data

Results flagged for a closer look

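In 14 of 160 sets of libraries (10 genes in 16 groups), the highest or lowest library lay far from the other libraries of its group by Dixon's test, and chance flags about 1 group in 20. Among the class II genes, prefrontal Cd74 reached 145.5 normalized counts in saline control male 3, where the next library had 99.75, and H2-Aa reached 77.7 in the same library, where the next had 46.3. Prefrontal Cd74 was 120.8 in saline PLX female 4 (next 81.3). Hippocampal H2-Ab1 was 36.6 in MIA control male 6 (next 14.6), and hippocampal H2-Eb1 was 60.79 in saline PLX male 4 (next 30.1). H2-Eb1 was low at 16.03 in hippocampal MIA PLX female 5, where the next lowest library had 32.5.

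Among the class I genes, hippocampal H2-K1 was high at 703.0 in MIA PLX female 6 (next 535.5), at 718.5 in saline PLX female 1 (next 562.9) and at 698.4 in saline PLX male 2 (next 541). H2-D1 was low at 541.7 in hippocampal MIA control male 2 (next 685.4) and at 669.5 in prefrontal saline PLX female 3 (next 778). Prefrontal B2m was 1608 in MIA PLX male 4 (next 1438). Ciita was low at 37.14 in hippocampal MIA PLX female 6, where the next lowest library had 75.0 and which is 1 of the 14 labels that stand apart, and high at 128.9 in prefrontal saline PLX male 3 (next 69.1).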

How the results depend on the processing

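Of the 10 genes, the number called for PLX in hippocampus (2) was 1 with no filter on low values and 1 without saline control males 2 and 3, and 0 with a term for the labels that stand apart or without them; it ran from 1 to 2 when each library was left out. In prefrontal cortex (1) it was 0 with that term and 0 without those labels, and ran from 1 to 3. For MIA in hippocampus (0) it was 1 with DESeq2 (Cd74), and for sex in hippocampus (0) it was 1 with the term (B2m). For PLX in prefrontal saline males it ran from 0 to 1 when each library was left out, with 1 without saline PLX male 5. The cause of these changes was not tested. The sign turned for Tapbp under PLX in prefrontal cortex with the term (0.0096) and for Ciita in prefrontal MIA males without the labels that stand apart (-0.0026). Ciita under PLX ran from 0.56 to 0.66 in hippocampus and from 0.46 to 0.56 in prefrontal cortex over 48 fits without 1 library, called in all 48 in each. The other 361 counts of members called under planned or added settings were equal or close to those in the report. So were 1640 counts with 1 library left out. Close counts need not be equal, because a stricter filter on low values left H2-Ab1 and H2-Eb1 untested. The males 2 and 3 were left out, and the tissue difference of the MIA effect was added, after the data were seen.

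Over all genes, PLX calls in hippocampus (7972) were 75 with the term and 9 without those labels, and in prefrontal cortex (7499) 43 and 32. DESeq2 called 1236 genes for PLX in prefrontal saline males (67 by limma), 81 for sex in hippocampus (49 by limma), and 10 and 5 for MIA in hippocampus and prefrontal cortex (0 by limma). Same-numbered libraries within a tissue were not taken as pairs, with a median correlation of deviations of -0.0056 in hippocampus and -0.0052 in prefrontal cortex. The replicate block changed no count of members called, left Cd74 after MIA at -0.73 in hippocampus (limma adjusted p = 0.415), and called 23 genes for PLX in prefrontal saline males. For labels shared between tissues, 38 of 48 pairs correlated above 0.1 and 22 matched their own label best; as a block they called 7 of the 10 genes between tissues, as without it, and 10 genes for the tissue difference of the PLX effect (0 without it). With a filter of signal 50 in 24 libraries, H2-Ab1 and H2-Eb1 were not tested. Under that filter neither could be called between tissues, although both are among the 7 called in the report. Counting error is widest for class II in hippocampus, with 5 reads of H2-Ab1 at the lowest.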
